A study of Mus musculus with 2 samples.

Results

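Fibrillar collagen genes were examined for peaks of chromatin immunoprecipitation with sequencing (ChIP-seq) for KLF4, a zinc finger transcription factor, in mouse atherosclerotic lesions. The genes were Col1a1 and Col1a2 (the chains of type I collagen), Col3a1 (type III) and Col5a1 and Col5a2 (type V), 5 of 21887 protein-coding genes. They were chosen by their WT peaks, that is, listed once the number and scores of those peaks were known, so counts, scores and positions are a description and not a test. A peak belonged to a gene when its midpoint fell in the RefSeq GRCm38.p6 span of that gene or in the 10 kb next to it. By this rule 22 of 2251 peaks of the WT list and 1 of 1153 peaks of the KO list were members. Each list came from 1 library, labelled WT or KO, made from BCA tissue of C57BL/6 mice fed a Western diet. The 2 groups share strain, diet and antibody, and the sources used here give no age, no further allele, no count of pooled animals, and neither the deleted gene nor the cells that lost it. The tissue is labelled as a mixture of smooth muscle cells, epithelial cells, macrophages and others, and peak positions allow no check of that label against marker genes. Read depth is unknown, there is no replicate error, and a difference between the lists compares 2 libraries, not genotypes.

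Fibrillar collagens are triple helices of alpha chains that assemble into the banded fibres giving arteries and plaque caps their tensile strength. Type I collagen combines products of Col1a1 and Col1a2, type III is made of Col3a1 chains alone, and type V, built from Col5a1 and Col5a2 chains, starts fibrils and limits their diameter. In lesions, smooth muscle cells and fibroblast-like cells are the known sources of these chains. KLF4 is known to recognise CACCC elements and related GC-rich DNA, and in smooth muscle cells it is known for its part in the switch away from the contractile state.

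Peaks were called on 4 of the 5 genes in WT and on 1 in KO. Under the same rule, the share of all protein-coding genes with a peak was 6.22% in WT and 2.34% in KO. Over those with a span of 15 kb or longer, as all 5 genes have, it was 6.91% and 3.52%. Each of the 4 genes held at least 3 WT peaks, which 0.535% of protein-coding genes did within their spans. Col1a1 held 11 WT peaks, Col1a2 4, Col3a1 4, Col5a1 3 and Col5a2 0, and the only KO peak lay in Col5a1. All 22 WT peaks lay inside the spans, with no other annotated gene at their midpoints, so the 10 kb flanks added none. None of the 22 overlapped a KO peak, where 15.8% of all WT peaks did. A span without a KO peak, as in Col1a1, Col1a2 and Col3a1, was usual for genes with many WT peaks. Of the 117 protein-coding genes with at least 3 WT peaks in the span, 103 had no KO peak in it. The nearest WT peak beyond the 10 kb limit was 640 kb from Col1a1, 1304 kb from Col1a2, 508 kb from Col3a1 and 2030 kb from Col5a1. Around each of these genes the called signal was thus limited to the gene body.

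**Figure D1:**
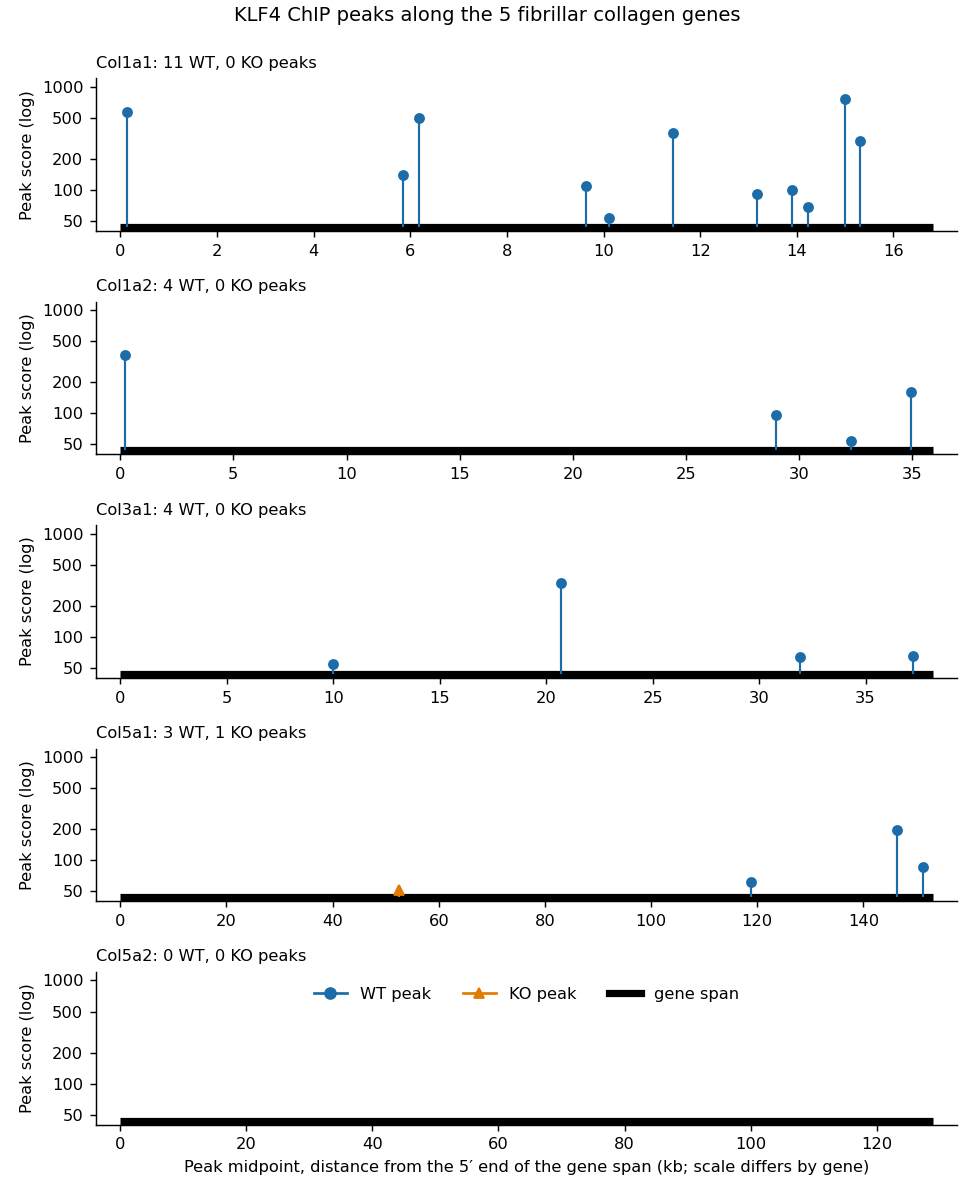
Peaks along the 5 fibrillar collagen genes, with the distance of each midpoint from the 5′ end of the span in kb (scale differs by gene) against the peak score on a log axis; circles are WT peaks, triangles KO peaks and the bar is the gene span. Col1a1 carries 11 WT peaks, Col1a2 and Col3a1 4 each, Col5a1 3 WT peaks and 1 KO peak, and Col5a2 none.

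Col1a1 (gene 12842, chromosome 11, 94936224 to 94953042) encodes the alpha 1 chain of type I collagen, the main fibril collagen of the artery wall. Its 11 WT peaks were the most of any protein-coding span, ahead of 10 in Eif4g2, a translation regulator gene, and 9 each in Fn1 (fibronectin), Myh9 (non-muscle myosin) and Sfi1. Sfi1 also held 5 KO peaks in its span, where Col1a1, Eif4g2, Fn1 and Myh9 held 0. The span measures 16.8 kb, so the peaks stood at 6.54 per 10 kb and covered 1896 bp, or 11.3% of the span. By density Col1a1 was number 18 of the 117 protein-coding genes with at least 3 WT peaks in the span, whose median was 1.40 per 10 kb. Fn1, over 67.8 kb, had 1.33 per 10 kb, so compared with Fn1, Col1a1 combined the higher count with a shorter span. Eif4g2, with 1 peak fewer than Col1a1, had a shorter span than Col1a1 and a higher density, 6.65 per 10 kb. Pabpc1, with 8 WT peaks in 13.9 kb, had 5.75 per 10 kb. Many peaks in a short span were thus not particular to Col1a1.

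The score of a peak, as the authors deposited it, was taken to be the p-value of the call on a log scale (its negative log10 times 10), and the WT list starts at 50. The Col1a1 peak nearest the 5′ end, at 94936237 to 94936471, scored 562 and began 13 bases inside the span. The next pair lay 5.71 kb further in, at 94942017 to 94942111 with a score of 139 and at 94942311 to 94942481 with a score of 494. The middle of the gene held peaks at 94945781 to 94945938 (score 108), 94946276 to 94946404 (53.5) and 94947550 to 94947760 (358). These lay between 57.3% and 68.0% of the way along the span, counted from the 5′ end to the peak midpoint. Towards the 3′ end came 94949332 to 94949457 (score 91.9), 94950004 to 94950235 (100.1) and 94950332 to 94950577 (68.5). The highest, 94951134 to 94951290 with a score of 764, was number 57 of the WT list, and the last, 94951454 to 94951589, scored 301. High and low peaks were thus interspersed along the gene, and the lowest, scoring 53.5 and 68.5, had a higher one 480.5 bp and 335 bp before them.

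Peaks were closest together in Col1a1. Of its 10 neighbouring pairs of peaks, 6 had midpoints under 1 kb apart, and the median distance was 741 bp. In the other 3 genes no pair was closer than 2652 bp, and the median was 7992 bp. Over all protein-coding genes with at least 3 WT peaks, the median was 1767 bp and 38.5% of 348 pairs were under 1 kb apart. The narrowest gap within Col1a1 was 96 bp, between the peaks scoring 100.1 and 68.5, so these remained separate calls. These distances follow the length of the genes as well as the number of peaks.

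Col1a2 (gene 12843, chromosome 6, 4505618 to 4541543, plus strand) encodes the alpha 2 chain, which joins alpha 1 chains in type I collagen. Its 4 WT peaks were split between the ends of the 35.9 kb span. The highest, at 4505685 to 4505937, scored 368 and began 67 bases inside the span, also just past the 5′ end. After 28.8 kb without a call came 4534522 to 4534682 (score 95.8), 4537867 to 4537990 (53.5) and 4540511 to 4540649 (159), at 80.7%, 89.9% and 97.3% of the span. The type I chain genes were the only ones of the 5 with a midpoint in the first 500 bases of the span, at 130 and 193 bases. Of 17492 protein-coding genes of known strand, 0.332% had a WT peak there, and of the 675 of these with a WT peak anywhere in the span, 8.59% did. The 675 include genes with fewer WT peaks than either type I gene, and no share was counted for genes with as many. Col1a1 is not among the 17492, since its strand came from general knowledge.

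The RefSeq GRCm38.p6 promoter table held Col1a2, whose first peak stood beside the promoter, and Col3a1 and Col5a1, which had none near theirs. It did not hold Col5a2 or Col1a1, whose first peak also lay just past the 5′ end. The 250 bases upstream of the start used in that table were searched for the 3 genes it held. These bases are shown as far as they lie outside the gene span, plus strand, 5′ to 3′. For Col5a1 that start is inside the span, so the last 44 of the 250 bases are left out and 206 are shown. Capitals mark CACCC, the core element KLF4 is known to recognise, and CCGCCC, the GC box core, on either strand (as GGGTG and GGGCGG when reversed). The stretches shown are chr6:4505368-4505617, chr1:45311288-45311537 and chr2:27886175-27886380.
Col1a2: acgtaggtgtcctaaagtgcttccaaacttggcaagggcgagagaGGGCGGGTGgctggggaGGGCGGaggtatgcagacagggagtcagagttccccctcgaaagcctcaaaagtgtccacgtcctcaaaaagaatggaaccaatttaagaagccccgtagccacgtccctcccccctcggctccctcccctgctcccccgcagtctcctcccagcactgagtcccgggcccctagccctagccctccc
Col3a1: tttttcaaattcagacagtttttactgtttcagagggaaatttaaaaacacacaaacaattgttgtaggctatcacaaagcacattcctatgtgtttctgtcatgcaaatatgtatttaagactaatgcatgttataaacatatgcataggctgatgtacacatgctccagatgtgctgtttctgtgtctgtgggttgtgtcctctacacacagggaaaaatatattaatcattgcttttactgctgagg
Col5a1: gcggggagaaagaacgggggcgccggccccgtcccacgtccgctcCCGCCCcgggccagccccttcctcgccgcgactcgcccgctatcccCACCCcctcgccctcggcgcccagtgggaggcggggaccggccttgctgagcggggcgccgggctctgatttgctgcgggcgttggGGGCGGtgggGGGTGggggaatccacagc
The Col1a2 promoter window, which runs 50 bases past the start, ended 18 bases before the peak began. The stretch had 1 CACCC match and 2 CCGCCC matches, all reversed, with the leftmost base of the CACCC match 201 bases before the start and that of the nearer CCGCCC match 188 bases before it. The CACCC match overlaps the other CCGCCC match, so they appear as 1 run of capitals. Col3a1 had 0 matches of each and a GC content of 35.2%, and Col5a1 had 2 of each and 76.4%, next to 62.0% in Col1a2, all counted over the 250 bases. Of 21263 such upstream stretches of protein-coding genes, 54.2% held CACCC and 42.6% held CCGCCC, so a match is common and describes letters, not binding. The nearest WT peak was 9.86 kb from the Col3a1 window and 119 kb from the Col5a1 window, and the peaks themselves have no sequence shown here.

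Col3a1 (gene 12825, chromosome 1, 45311538 to 45349706, plus strand) encodes the chain of type III collagen, which forms fibrils together with type I in arteries. It held 4 WT peaks over 38.2 kb and none near its start. The 1 high peak was in the middle of the gene, at 45332131 to 45332323, with a score of 331 and number 191 in the list. The others, at 45321451 to 45321597, 45343395 to 45343539 and 45348677 to 45348818, scored 54.9, 63.6 and 64.9, near the lower limit of the list. The last of these lay at 97.5% of the span.

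Type V collagen genes had few peaks over much longer spans. Col5a1 (gene 12831, chromosome 2, 27886381 to 28039510, plus strand) encodes the alpha 1 chain of type V, and all 3 of its WT peaks were in the last 25% of the 153 kb span. They lay at 28005163 to 28005284 (score 62.0), 28032557 to 28032786 (194) and 28037521 to 28037665 (86.6). The KO peak, at 27938775 to 27938927, scored 52.0, was 34.3% of the way along the gene and stood 66.4 kb from the nearest WT peak. Only 6.33% of KO peaks scored lower, so this call was close to the limit of its list, and the WT and KO peaks of Col5a1 marked different places. Col5a2 (gene 12832, chromosome 1, 45374331 to 45503282), the alpha 2 chain gene, had no peak in either list over 129 kb. It lies beside Col3a1, whose last WT peak was 25.6 kb away and is the nearest one outside its window. No call at Col5a2 means only that nothing passed the authors' limit.

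**Figure D2:**
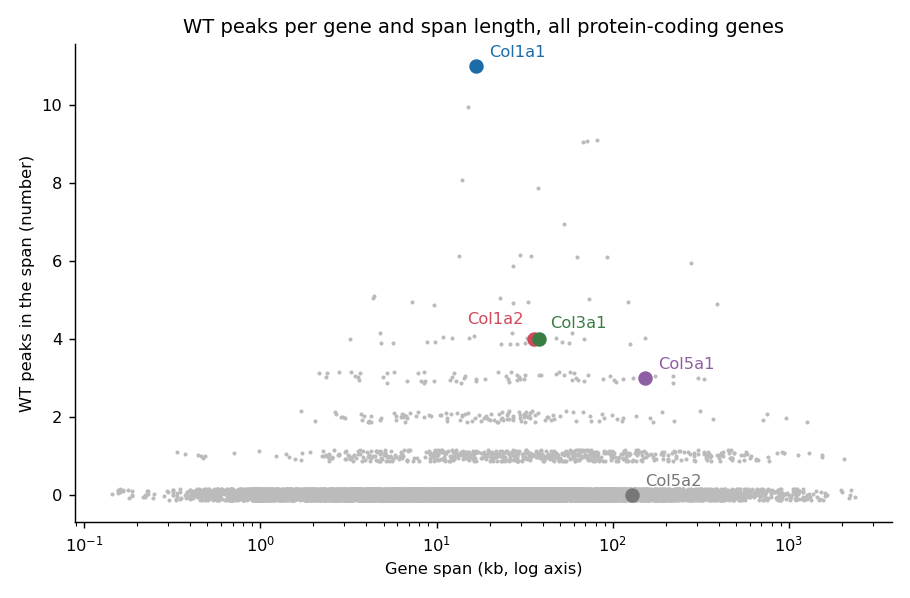
WT peaks in the span (points of the other genes are jittered vertically) against span length in kb on a log axis for all protein-coding genes, with the 5 collagen genes in colour. Col1a1, with 11 peaks in 16.8 kb, is the top point, Col1a2 and Col3a1 lie at 4, and Col5a2 is at 0 with a span of 129 kb.

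In score, the collagen peaks were spread through the WT list. Their median was 104 (lowest 53.5, highest 764), next to 88.3 for all WT peaks and 82.6 for those without a KO partner. Above the list's median were 14 of the 22, and 7 were in the top 10%, at scores of 293 or more. Of these 7, 5 were in Col1a1, 1 in Col1a2 and 1 in Col3a1. None was in the top 1% of the list, and 3 scored under 60. By gene the median was 139 in Col1a1, 128 in Col1a2, 64.2 in Col3a1 and 86.6 in Col5a1, and the ranges of the 4 genes overlapped. Scores follow the depth and background of a library, so they were not set against KO scores.

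**Figure D3:**
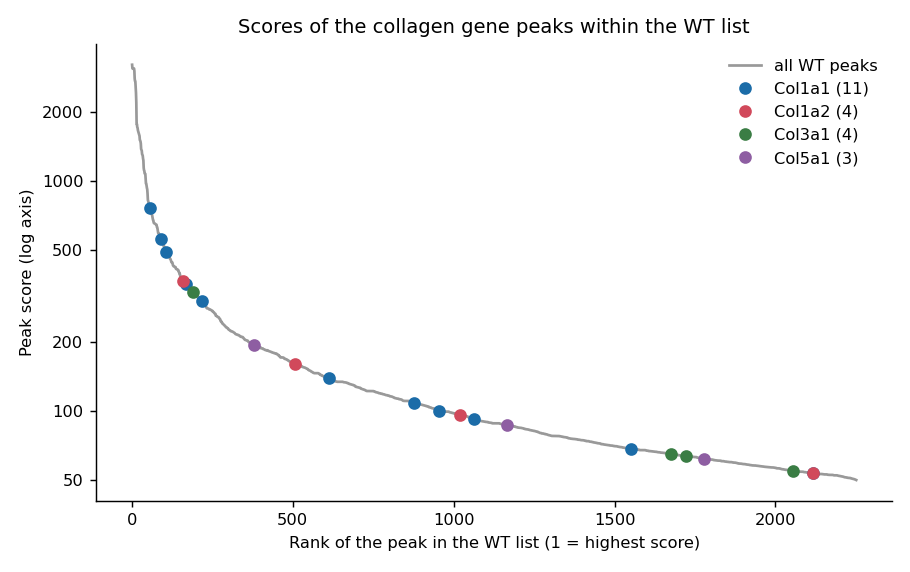
Score on a log axis against rank in the WT list (1 is the highest) for all 2251 WT peaks (line) and the 22 collagen peaks (points, coloured by gene; the lowest Col1a1 and Col1a2 points, both at 53.5, coincide). The highest collagen peaks, from rank 57 down to rank 217, belong to Col1a1, Col1a2 and Col3a1, and the rest lie between ranks 380 and 2118.

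All collagen peaks were narrow. Widths ran from 95 to 253 bp with a median of 152 bp, close to the 156 bp of the whole WT list, in which the widest peak was 5877 bp. Of the 22, 15 measured 100 to 200 bp and 6 were wider. The widest was the 5′ peak of Col1a2 at 253 bp, and the 5′ peak of Col1a1 measured 235 bp. Width did not go with score throughout: a Col1a1 peak of 246 bp scored 68.5 while the top-scoring one was 157 bp wide.

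Collagen peaks lay mostly towards the 3′ ends of the genes. Of the 22, 2 were in the first 25% of the span, 3 between 25 and 50%, 4 between 50 and 75% and 13 in the last 25%, with a median position of 79.5%. The last 25% of the span thus held 59.1% of the peaks, against 38.2% of 1023 WT peaks in protein-coding spans of known strand (a peak in 2 overlapping spans counts for each). In those of these spans with at least 3 WT peaks the share was 46.0% of 335, so a lean towards the 3′ end was also present elsewhere, as in Myh9 with 6 of 9. The share differed by gene. Col1a1 had 5 of 11 peaks in the last 25% (45.5%), close to the 46.0%, and Col3a1 had 2 of 4. Col1a2 had 3 of 4 and Col5a1 3 of 3. Without Col1a1, 8 of 11 were in the last 25%. These shares were not tested, since neighbouring peaks of a gene are not independent. The annotation used here has no exons, so positions within exons, introns and untranslated regions are not given.

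**Figure D4:**
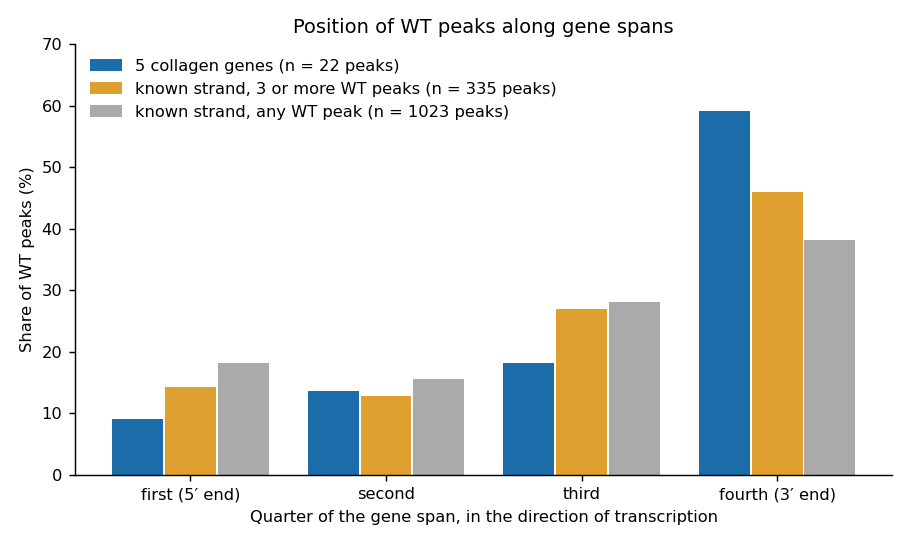
Share of WT peaks (%) in each of 4 equal parts of the gene span, from the 5′ to the 3′ end, for the 5 collagen genes (22 peaks), spans of known strand with at least 3 WT peaks (335) and all spans of known strand with a WT peak (1023). The part at the 3′ end holds 59.1%, 46.0% and 38.2% of the peaks.

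The other genes of the collagen system were covered by 6 lists with 81 genes. A WT peak was assigned to 14 of them (17.3%) and a KO peak to 7 (8.64%), with 3 in common. The background was 6.22% and 2.34% over all protein-coding genes, and 6.91% and 3.52% over those of 15 kb or longer, the class to which 69 of the 81 belong. The median span was 47.9 kb for the 81 genes and 17.2 kb for all protein-coding genes. Beyond the 15 kb limit, the background was not matched for length. Of the 26 WT peaks of these lists, 2 overlapped a KO peak, in Col6a6 and beside P4ha2. Over the whole WT list, 15.8% of 2251 peaks did.

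Among the 6 other fibrillar collagens, Col11a1, a cartilage-type chain gene, had 1 WT peak, with a score of 63.4. Col2a1, Col5a3, Col11a2, Col24a1 and Col27a1 had none in either list. Of 33 other collagen genes, 3 carried a peak in WT and 4 in KO. Col4a1, a basement membrane chain gene, had a WT peak scoring 123, whose midpoint was also in Gm15418, and a KO peak scoring 59.6 elsewhere. Col6a3, a chain of the microfibrillar type VI, had a WT peak scoring 122. Col6a6 had overlapping peaks in WT (score 238) and KO (131), while Col4a4 (53.7) and Col13a1 (55.5), a transmembrane collagen gene, had KO peaks alone. None of these 39 genes held more than 1 WT peak.

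Genes that modify and fold the chains had WT peaks at 5 of 16. Serpinh1, the collagen chaperone HSP47, held 3 WT peaks, scoring 258, 159 and 76.5 at 88.7%, 78.3% and 54.9% of its span. Ppib (cyclophilin B), which forms the prolyl 3-hydroxylase complex with P3h1 and Crtap, held peaks scoring 89.9 and 280, the latter also in the span of Snx22. P3h1 had 1 at 86.4, and Crtap had none. Fkbp10, a prolyl isomerase gene, had 1 in its span and 1 in the span of P3h4, both scoring 61.4. The peaks given to P4ha2, a prolyl 4-hydroxylase subunit, scored 287 and 75.6 and lay 8.45 and 8.96 kb outside it; the first coincided with a KO peak of 132. Plod2, a lysyl hydroxylase gene, had a KO peak alone, at 50.5.

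Of 12 genes of secretion, propeptide cleavage and crosslinking, 2 carried a WT peak and none was called in KO. Bmp1, the procollagen C-proteinase, had peaks scoring 126 and 67.4, and Loxl1, a lysyl oxidase family gene, had 1 scoring 204 at 58312982 to 58313178 on chromosome 9, in a span that ends at 58313212. Of 6 genes of fibril-binding proteins, Sparc alone had peaks, 3 in WT, with the highest at 975. Dcn, Bgn, Fmod, Lum and Prelp, the small proteoglycans on collagen fibrils, had none in either list. Of 8 collagen receptor genes, Itgb1, the shared beta 1 integrin chain, held 4 WT peaks (67.0 to 355) and Itga11, its collagen-binding alpha partner, held 2 (77.7 and 73.5). Ddr2, a collagen-binding kinase gene, had a KO peak at 50.7. At least 3 WT peaks, all inside the span, were thus found in Serpinh1, Sparc and Itgb1 among the 81 genes. Over all protein-coding genes, 117 of 21887 (0.535%) held at least 3 in the span. The difference was not tested.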

How the data were processed

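KLF4 ChIP-seq was measured in 1 WT and 1 KO library, grouped by sample title. Bowtie 1.0, SAMtools 0.1.18 and the build mm10 are named per the submitters' processing notes. The peak names show MACS calls, 1 list per library. For the MACS version, control and settings, nothing is stated in the labels or file headers. The deposited value is a score per peak, set by the authors' caller, which varies with read depth and background. The lists hold no read counts, so no depth and no interval or floor that needs it can be given.

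Gene spans came from the RefSeq table of GRCm38.p6, whose chromosomes have the coordinates of mm10. BED starts were converted to 1-based positions. Strand was read from the RefSeq promoter table, which held 3 of the 5 genes and 63 of the 81 list genes. For Col1a1 (plus) and Col5a2 (minus), it was taken from general knowledge. Sharing meant an overlap of at least 1 bp. No test was run. The members, lists and named genes (every list gene with a peak) were chosen with earlier results of these data known. Peak assignment was checked on simulated peaks. Alternatives changed the window, assignment by midpoint, score minimum, list size, overlap and merging. Software was matplotlib 3.10.9, scipy 1.17.1, pandas 2.3.3, numpy 2.4.6 and Python 3.11.15.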

Additional observations from a re-analysis of the deposited data

How the results depend on the processing

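Of 63 values under alternatives, 54 remained within 1.5 times the reported count or, for medians, within the 95% binomial interval of the median. That interval treats peaks as independent, which neighbouring peaks of a gene are not, and for the score it ran from 64.9 to 331. The raised score medians given below, 316 and 247, are therefore among the 54, so this count does not show that medians were stable. The 22 WT collagen peaks and the KO peak were unchanged with the span alone, the span plus 2500 bp and any overlap with the window. A score minimum of 100 left 12 WT peaks (8 in Col1a1, 2 in Col1a2, 1 each in Col3a1 and Col5a1) and 0 KO peaks, hence 0 of the 5 genes with a KO peak. It also left KO peaks at 2 of the 81 other collagen genes, and peaks at 647 protein-coding genes in WT and 64 in KO, against 1362 and 513 as reported. Cutting the WT list to the 1153 highest peaks left 14 WT collagen peaks, 9 of them in Col1a1, and 770 protein-coding genes with a WT peak. With the span alone, 829 had one. The median score of the collagen peaks rose from 104 to 316 with the score minimum and to 247 with the shorter list, which follows from dropping low peaks. Under both, 4 of the 5 genes kept a WT peak. No WT collagen peak met a KO peak with an overlap of 50% of the shorter peak or within 500 bp. Merging peaks under 100 bp apart changed the median spacing from 2989 to 3327 bp. No paired analysis was possible because each group has 1 library. The unknown depth limits any statement on peaks that were not called in KO.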
